A study of Bubalus bubalis with 6 samples.

Results

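MicroRNA (miRNA) genes were examined in RNA-seq libraries of buffalo muscle stem cells (MuSCs). The deposited gene table lists 24616 genes, and 1153 of them are typed as miRNA. The miRNA genes described here were chosen by their counts: a row was taken as detected when its reads summed to at least 10 over the 6 samples, and 141 rows met this rule. A further 235 rows held 1 to 9 counts, and 777 rows were listed at 0 in every sample. The rule has a threshold, which 12 rows met with exactly 10 counts and 9 rows missed with 9 counts. Of the detected rows, 96 carried a miRNA name and 45 were listed by their cattle Ensembl identifier alone.

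MuSCs are the precursor cells of skeletal muscle fibres. They were isolated from fetal longissimus muscle of the water buffalo, Bubalus bubalis. The 3 proliferating samples were kept in growth medium with fetal bovine serum (GM samples), and the 3 differentiating samples were switched near confluence to a medium with little horse serum (DM samples), in which the cells fuse into myotubes. The labels give no genotype, sex or further treatment, and do not say whether the replicates were separate cultures, so p-values measure only the spread between these samples. All 7 myogenic marker genes examined were counted, including PAX7, MYF5 and MYOD1. The markers examined for other cell types were counted as well, so a count alone does not identify the cells.

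A miRNA gene is transcribed as a long primary transcript, alone or inside another gene. The nuclear enzyme DROSHA with its partner DGCR8 cuts a short hairpin out of it, XPO5 exports the hairpin, and DICER1 trims it to the mature strand that Argonaute proteins carry to target mRNAs. In skeletal muscle the mir-1, mir-133 and mir-206 genes are known as muscle-enriched miRNAs, which myogenic factors switch on as myoblasts leave the cell cycle. The libraries were made from polyadenylated RNA and not from size-selected small RNA. A count therefore stands for a read placed on the hairpin's annotated interval, 47 to 149 bases long with a median of 81, and not for a mature miRNA. All positions are those of the deposited table, which names no genome build.

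The detected miRNA rows held a very small part of each library. Gene counts ranged from 35615864 to 40305237 per sample, and the miRNA rows took 0.0118 to 0.0224% of them in GM and 0.0139 to 0.0251% in DM samples. The mean share was 0.0158% ± 0.00573 (SD, n = 3) in GM and 0.0186% ± 0.00581 (SD, n = 3) in DM samples, which overlapped (two-sided exact permutation test, p = 0.5, where 0.1 is the smallest p that 3 against 3 samples allow). The median row held 46 counts in all, and 47 rows held 100 or more. Much of the spread came from repeated copies of mir-2887 and mir-2904, described further on. Without the single row of the most counts the share was 0.0139% in GM and 0.0137% in DM samples (exact permutation test, p = 1). Without all 15 copies, a removal chosen after seeing the data, the share was 0.0105% ± 0.00114 in GM and 0.0125% ± 0.000432 in DM samples (SD, n = 3 each), and the groups did not overlap (exact permutation test, p = 0.1).

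The expression of miRNA rows in DM samples was compared with that in GM samples by edgeR's quasi-likelihood test on the whole gene table. A row was called when its absolute log2 fold change (DM over GM) exceeded 1 and its adjusted p-value was under 0.05. edgeR called 34 of the 141 miRNA rows, 24 higher and 10 lower in DM samples, against 25.3% of all 15576 genes tested (15% higher and 10.3% lower). Levels in CPM (counts scaled to library size) did not overlap between the groups for 43 rows, against 68.8% of all tested genes. The median log2 fold change was 0.16 over the miRNA rows and 0.03 over all tested genes. Among the 4953 tested genes of 10 to 1000 counts, 37.1% were called.

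A row that reached 10 counts through 1 group alone had to differ, so the calls were split by that. Both groups summed to 10 counts or more for 80 rows, of which 15 were called, 9 higher and 6 lower. DM samples alone reached 10 counts for 23 rows, of which 15 were called higher. GM samples alone reached it for 13 rows, of which 4 were called lower. Neither group reached it for the other 25 rows, and edgeR called 0 of these, with 1 at an unadjusted p under 0.05 and 0 called by DESeq2. Of the 34 rows that edgeR called, DESeq2 called 19, did not call 14 and gave no adjusted p for 1, the called copy of bta-mir-2904-1. The higher rows that it did not call were bta-mir-125a, bta-mir-450a-1, bta-mir-450a-2, bta-mir-656, bta-mir-763, ENSBTAG00000029897 and ENSBTAG00000044871. The lower rows were bta-mir-25, bta-mir-222, bta-mir-2385, bta-mir-2447, bta-mir-2903, ENSBTAG00000044465 and ENSBTAG00000046893.

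**Figure D1:**
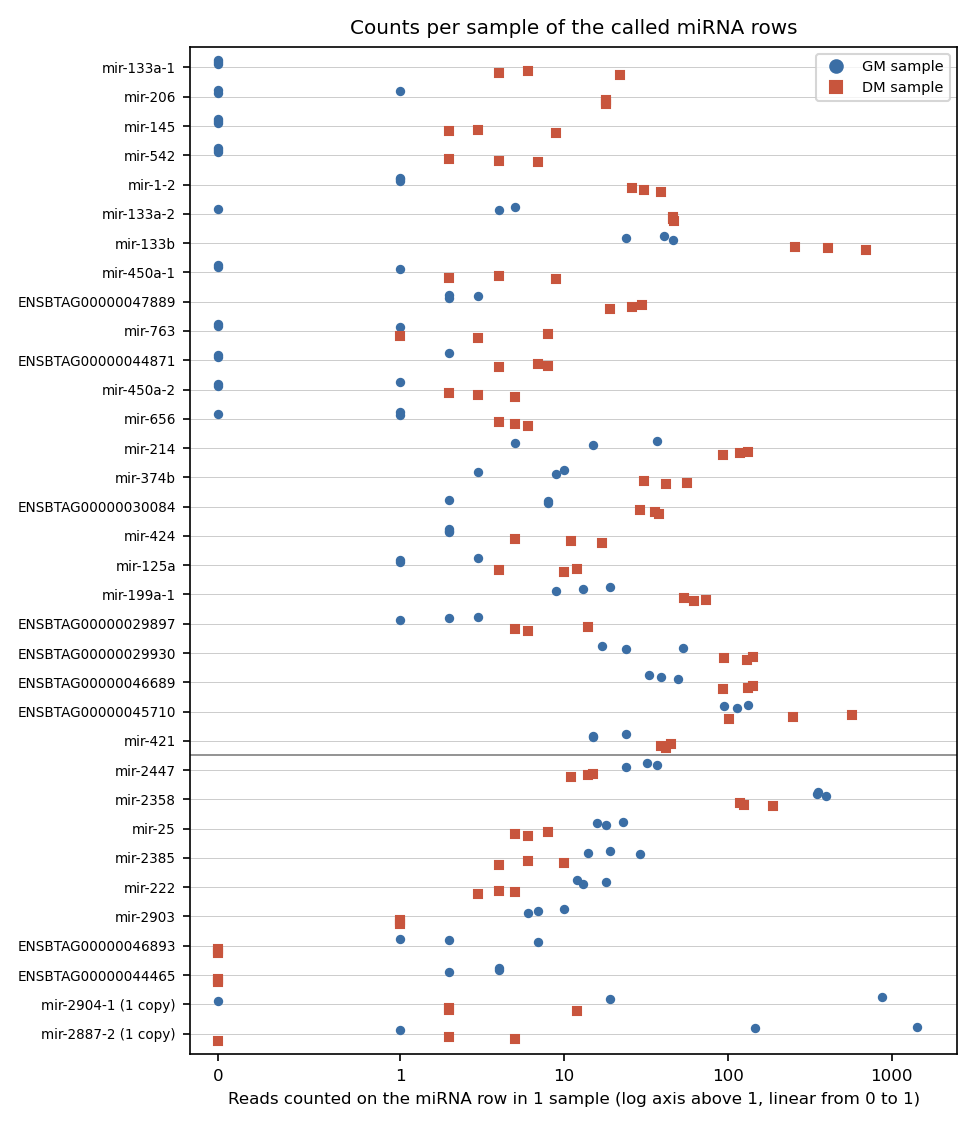
Reads counted on each of the 34 called miRNA rows (1 row per line, ordered by log2 fold change) in the 3 GM samples (circles) and the 3 DM samples (squares), on an axis that is logarithmic above 1 count. Rows above the grey line were called higher in DM samples and rows under it lower; the 2 lowest rows, copies of mir-2904-1 and mir-2887-2, hold counts of 870 and 1416 in a single GM sample.

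The muscle-enriched miRNAs were higher in DM samples. Of 12 names on the list the table holds 9 rows, 8 of them with a count and 5 of them detected, and edgeR called all 5 detected rows higher. Summed over the 9 rows, the counts were 51, 26 and 48 in GM and 356, 517 and 823 in DM samples. The rule on total counts favours such rows: only bta-mir-133b reached 10 counts in GM samples as well.

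bta-mir-133b (ENSBTAG00000029826, chr23:24312330-24312413, plus strand) held the most counts of this group, with 1472 in all. Its level was 1.11, 0.577 and 1.08 CPM in GM and 7.64, 11.2 and 18.7 CPM in DM samples. Every DM sample exceeded every GM sample several times over. The mean level was 0.922 ± 0.300 CPM in GM and 12.5 ± 5.64 CPM in DM samples (SD, n = 3 each), a log2 fold change of 3.76 ± 0.36 (SE, adjusted p = 5.16e-06, edgeR). Its neighbour bta-mir-206 (ENSBTAG00000036400, chr23:24308042-24308127, plus strand) held 0, 1 and 0 counts in GM and 18, 18 and 18 in DM samples. With a single GM read the ratio of DM to GM counts, scaled for library size, was 60.8 with an exact 95% interval of 10.5 to 2447. It was 40 without GM replicate 1, and at least 13.3 without GM replicate 2, which held that read. Such intervals cover counting error only. Together these rows span 4372 bases, and mir-206 is known as the miRNA most restricted to skeletal muscle.

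The other pair of the group lies inside MIB1, on the opposite strand. bta-mir-1-2 (ENSBTAG00000029926, chr24:34841096-34841180) held 1, 1 and 1 counts in GM and 26, 31 and 39 in DM samples, a ratio of 36.1 (exact 95% interval 12.0 to 178). bta-mir-133a-2 (ENSBTAG00000029906, chr24:34844415-34844501) held 4, 0 and 5 counts in GM and 46, 46 and 47 in DM samples, with a log2 fold change of 4.06 ± 0.60 (SE, adjusted p = 0.00015, edgeR). The latter was 4.66 without GM replicate 3. The groups were far apart for both rows.

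The second copies of these miRNAs lie on chromosome 13. bta-mir-133a-1 (ENSBTAG00000036363, chr13:55227292-55227386) was listed at 0 in all GM samples and held 6, 4 and 22 counts in DM samples, which is at least 12.0-fold higher when the GM samples are set to 3 counts over the group. DM replicate 3 held most of these reads, and the bound was 5.73-fold without it, 7.90-fold without GM replicate 1 and 7.89-fold without GM replicate 2. bta-mir-1-1 held 1, 2 and 1 counts in DM samples and none in GM samples, below the detection rule. Of the remaining rows, bta-mir-208b held 0, 5 and 2 counts in DM samples, bta-mir-486 held 4 counts in all, and bta-mir-499 held none.

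Myogenic markers and markers of other cell types moved beside these miRNAs. Of the 7 myogenic genes, edgeR called MYOG, MYH3 and MYH8 higher and MYF5 lower. MYOD1 (log2 fold change 0.90) and PAX7 (-0.92) moved in opposite directions under the fold threshold. The summed level of the 7 was 2676 to 3077 CPM in GM and 3948 to 5699 CPM in DM samples. DES held most of the GM sum and did not rise, at a mean of 2274 CPM in GM and 2051 CPM in DM samples. MYH3 held most of the rise, from a mean of 346 to 2064 CPM. Of 4 fibroblast genes, COL1A1, COL3A1 and DCN were called higher, and the sum was 24474 to 24676 CPM in GM and 76105 to 95926 CPM in DM samples. COL1A1 and COL3A1 made up most of this sum. PDGFRA, which was not called, went from a mean of 575 to 859 CPM. The other lists were far lower: at most 1.20 CPM for 3 adipocyte genes (FABP4 called higher), 2.07 CPM for 3 endothelial genes (CDH5 and VWF called lower) and 6.27 CPM for 3 immune genes (CD68 called lower). No marker was at 0 in all samples. More RNA per cell and more cells of a type cannot be told apart in bulk samples, and the part of these cells in the miRNA counts was not tested.

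MiRNA rows that lie together moved together in several places. Counting rows within 10 kb on the same strand, 42 detected rows fell into clusters, and edgeR called 20 of them, 17 higher and 3 lower. That is 47.6% of them, beside 25.3% of all tested genes and 37.1% of those with 10 to 1000 counts. Of the rows called higher, 10 had reached 10 counts through DM samples alone, where 11 clustered rows stood. Both groups reached 10 counts for 27 clustered rows, of which 7 were called higher and 2 lower. Rows of a cluster can share a primary transcript and are not independent.

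**Figure D2:**
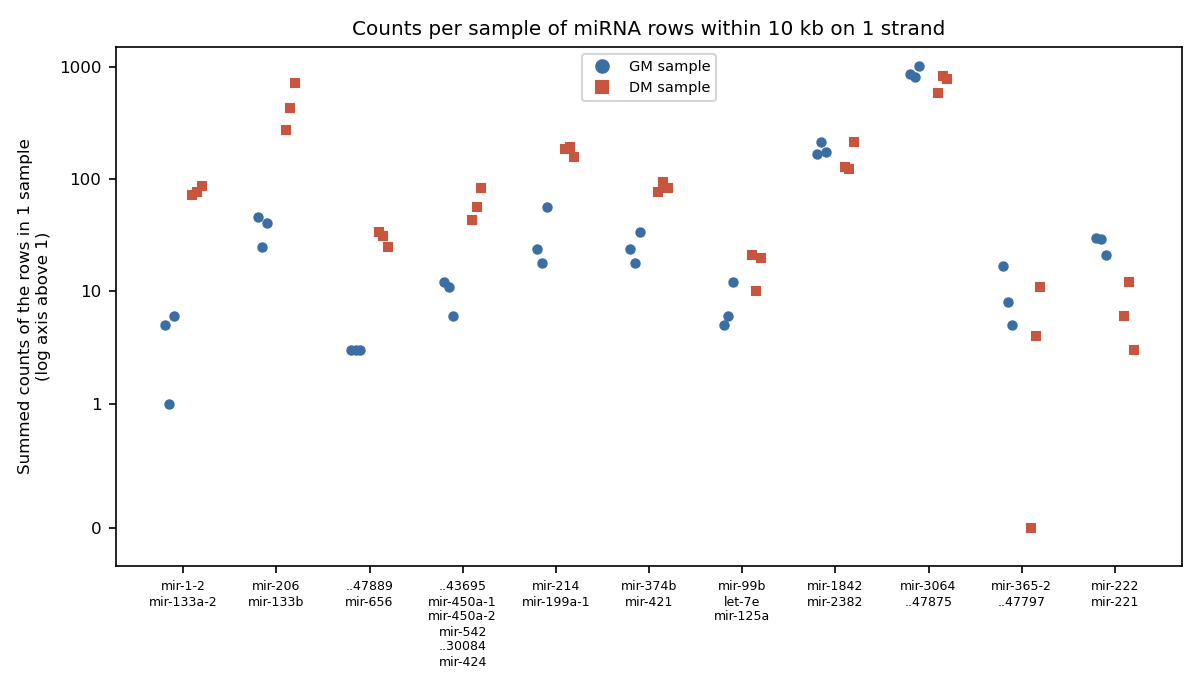
Summed counts in each GM sample (circles) and each DM sample (squares) of miRNA rows that lie within 10 kb on the same strand, without the mir-2887 and mir-2904 copies, on an axis that is logarithmic above 1; clusters are ordered by the ratio of DM to GM counts and ".." stands for ENSBTAG000000. DM samples lie above GM samples without overlap in the first 6 clusters, and below them for mir-222 with mir-221.

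The mir-424 cluster on chromosome X (chr X, 18178909 to 18185534, minus strand, 6626 bases) rose in DM samples. Its 6 rows held 12, 11 and 6 counts in GM and 43, 56 and 84 in DM samples, and edgeR called 5 of them higher, which include the 4 rows of the list named for mir-424 and mir-503. These 4 rows passed the rule on total counts through DM samples alone, so that a higher value there was largely set by the rule, and only ENSBTAG00000030084 reached 10 counts in GM samples as well. The best counted was ENSBTAG00000030084, with 8, 8 and 2 counts in GM and 29, 36 and 38 in DM samples (at a log2 fold change of 2.67 ± 0.47, SE, adjusted p = 0.000577, edgeR). bta-mir-424, a miRNA known to act against cell cycle genes, held 2, 2 and 2 counts in GM and 5, 11 and 17 in DM samples (at a log2 fold change of 2.54 ± 0.69, SE). The groups did not overlap for either row. bta-mir-542 was at 0 in GM and held 2, 4 and 7 counts in DM samples, at least 4.88-fold higher. The bound was 3.21-fold without GM replicate 1 and 3.2-fold without GM replicate 2. bta-mir-450a-1 (1, 0 and 0 against 4, 2 and 9 counts) and bta-mir-450a-2 (0, 0 and 1 against 2, 3 and 5 counts) passed the test with few reads. The remaining row, ENSBTAG00000043695, held 1, 1 and 1 against 1, 0 and 8 counts and was not called. The call of bta-mir-450a-1 was lost without GM replicate 2 or GM replicate 3, and that of bta-mir-450a-2 without GM replicate 1 or GM replicate 2 (adjusted p up to 0.0667 and 0.12). Without DM replicate 3 bta-mir-450a-1 fell under the rule on total counts and was not tested. The same held for bta-mir-450a-2 without any 1 of the DM replicates. bta-mir-450a-2 was also not called by DESeq2, with library size alone, without a filter on low counts or in the ncRNA table (adjusted p of 0.0506 to 0.139 in these fits). The ratio of DM to GM counts was 16.9 for bta-mir-450a-1, and 11.1 without GM replicate 2, 10.3 without DM replicate 3 and at least 3.70 without GM replicate 1, which held the only GM read. For bta-mir-450a-2 it was 11.3, and 7.41 without GM replicate 1, 7.39 without GM replicate 2 and at least 2.58 without GM replicate 3.

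bta-mir-214 and bta-mir-199a-1, miRNAs known from mesenchymal and muscle cells, rose on chromosome 16. bta-mir-214 (chr16:40485807-40485916, minus strand) was at 0.362, 0.12 and 0.976 CPM in GM and 3.94, 3.25 and 2.54 CPM in DM samples. Its mean level went from 0.486 ± 0.441 to 3.24 ± 0.699 CPM (SD, n = 3 each), a log2 fold change of 2.75 ± 0.51 (SE, adjusted p = 0.00082, edgeR). Without GM replicate 3 the log2 fold change was 3.73. bta-mir-199a-1 (chr16:40491602-40491705, minus strand) held 9, 13 and 19 counts in GM and 54, 74 and 62 in DM samples (at a log2 fold change of 2.36 ± 0.36, SE, adjusted p = 0.000186). Relative to their mean, the GM samples varied more than the DM samples for bta-mir-214, and the groups did not overlap for either row. Of the 5 rows of the list of mir-143, mir-145, mir-199 and mir-214 genes, 3 were detected and all 3 were called higher. The third, bta-mir-145, known from smooth muscle and other contractile cells, was at 0 in GM and held 3, 2 and 9 counts in DM samples, at least 5.26-fold higher. The bound was 2.87-fold without DM replicate 3, 3.46-fold without GM replicate 1 and 3.45-fold without GM replicate 2, and the row reached 10 counts through DM samples alone. The fibroblast marker sum given above, mostly COL1A1 and COL3A1, moved in the same direction as these miRNAs, and its part was not tested.

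bta-mir-374b and bta-mir-421 rose on chromosome X (X, 82023911 to 82024163, plus strand). bta-mir-374b held 9, 3 and 10 counts in GM and 31, 56 and 42 in DM samples, with a log2 fold change of 2.69 ± 0.47 (SE, adjusted p = 0.000514, edgeR). bta-mir-421 held 15, 15 and 24 against 45, 39 and 42 counts, a log2 fold change of 1.38 ± 0.35 (SE, adjusted p = 0.00558). Neither row overlapped between the groups.

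On chromosome 21 the miRNA rows known from the imprinted DLK1-MEG3 region were counted mostly in DM samples. The table lists 47 miRNA rows between 67561869 and 67604767 on the plus strand, a stretch delimited after its values had been seen. Together they held 6, 3 and 5 counts in GM and 51, 61 and 56 in DM samples. The summed level was 0.116 ± 0.0387 CPM in GM and 1.56 ± 0.0896 CPM in DM samples (SD, n = 3 each), 13.5-fold higher without overlap (two-sided exact permutation test, p = 0.1). Of the 26 rows with a count, 25 held more counts in DM samples and 1, bta-mir-376a, held its single count in a GM sample. Only 3 of the 47 rows were detected by the rule, and the rows below it held 5 counts in GM and 68 in DM samples.

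**Figure D3:**
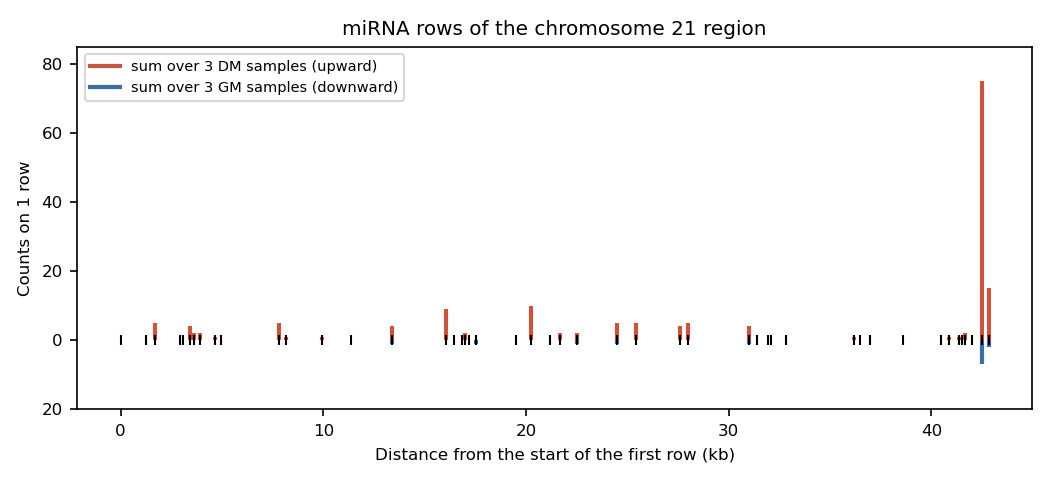
Counts on each of the 47 miRNA rows of the chromosome 21 region, by distance in kb from the start of the first row, summed over the 3 DM samples (upward bars) and the 3 GM samples (downward bars); black ticks mark the rows. Counts are spread thinly along the region and are highest on ENSBTAG00000047889 near its end, with 75 counts in DM samples and 7 in GM samples.

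Among these rows, edgeR called ENSBTAG00000047889 and bta-mir-656 higher. ENSBTAG00000047889 (chr21:67604365-67604474) held 2, 3 and 2 counts in GM and 30, 26 and 19 in DM samples (at a log2 fold change of 3.53 ± 0.53, SE, adjusted p = 0.000182, edgeR). bta-mir-656 (chr21:67604689-67604767) held 1, 0 and 1 against 4, 5 and 6 counts, a ratio of 8.45 (exact 95% interval 1.97 to 76.2). Without GM replicate 2 the ratio was 5.55. Neither row reached 10 counts in GM samples. The call of bta-mir-656 was lost without GM replicate 2 or DM replicate 3 (adjusted p up to 0.0609). By name, the list of this region had 35 rows in the table, 17 with a count and 1 detected. The third detected row of the stretch, ENSBTAG00000047640, held 0, 0 and 0 against 9, 0 and 1 counts and was not called.

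Other rows that rose lay outside the clusters described above. Of these rows, bta-mir-125a lies in a cluster with bta-mir-99b and bta-let-7e. ENSBTAG00000045710 lies in a cluster with ENSBTAG00000046351 and a copy of bta-mir-2904-3. ENSBTAG00000029930 (chr19:23382429-23382523, minus strand) held 24, 53 and 17 counts in GM and 142, 95 and 130 in DM samples (at a log2 fold change of 2.15 ± 0.37, SE, adjusted p = 0.000471, edgeR). ENSBTAG00000046689 (chr17:5105467-5105545, minus strand) held 50, 39 and 33 against 142, 132 and 94 counts (a log2 fold change of 1.77 ± 0.26, SE, adjusted p = 0.000162). Both rows were well apart between the groups. ENSBTAG00000029897, 661 bases from VMP1 on its strand, held 1, 2 and 3 against 14, 5 and 6 counts (a log2 fold change of 2.17 ± 0.77, SE). bta-mir-125a, 191 bases from SPACA6 on its strand, held 1, 1 and 3 against 12, 4 and 10 counts (a log2 fold change of 2.46 ± 0.79, SE). Neither bta-mir-125a nor ENSBTAG00000029897 reached 10 counts in GM samples, so a higher value in DM samples was favoured by the rule on total counts. ENSBTAG00000045710 (chr2:66269410-66269501) was at 2.72, 2.28 and 3.51 CPM against 17, 6.86 and 2.76 CPM, so that its groups overlapped (a log2 fold change of 1.64 ± 0.51, SE). The calls of these last 3 rows were lost without GM replicate 1, GM replicate 2 or DM replicate 1 (adjusted p up to 0.142, 0.0697 and 0.097). The log2 fold change of ENSBTAG00000029897 was 1.53 and that of ENSBTAG00000045710 was 0.77 without DM replicate 1, and that of bta-mir-125a was 3.17 without GM replicate 3.

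The list of let-7, mir-99, mir-100 and mir-125 genes had 15 rows in the table and 6 detected, of which bta-mir-125a alone was called. bta-let-7i (chr5:51209080-51209164, minus strand), a member of the let-7 family known from differentiated cells, held 290, 337 and 267 counts in GM and 243, 347 and 266 in DM samples. The groups overlapped, at 7.38 ± 0.626 and 7.95 ± 1.32 CPM (SD, n = 3 each), with a log2 fold change of 0.11 ± 0.15 (SE, adjusted p = 0.549, edgeR). Next to bta-mir-125a, bta-mir-99b held 3, 1 and 2 against 5, 0 and 5 counts and bta-let-7e held 1, 4 and 7 against 4, 6 and 5 counts. bta-mir-125b-1 held 1, 2 and 4 against 3, 8 and 7 counts, with a log2 fold change of 1.47 (adjusted p = 0.117).

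Fewer rows fell in DM samples. Leaving out the mir-2887 and mir-2904 copies, the best counted was bta-mir-2358 (ENSBTAG00000045172, chr2:135810541-135810604, plus strand), 641 bases from RCC2 on the same strand, at 9.60, 8.36 and 9.36 CPM in GM and 3.49, 3.42 and 5.08 CPM in DM samples. Its mean level went from 9.11 ± 0.654 to 4.0 ± 0.94 CPM (SD, n = 3 each), a log2 fold change of -1.19 ± 0.18 (SE, adjusted p = 0.000154, edgeR). RCC2 takes part in chromosome segregation during cell division. No DM sample reached the level of a GM sample.

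bta-mir-222 and bta-mir-221, miRNAs known from proliferating cells as repressors of the cell cycle inhibitor p27, span 804 bases on the plus strand of chromosome X. Of the list of mir-221, mir-222, mir-21, mir-31 and mir-155 the table held 4 rows, and these 2 were detected. bta-mir-222 (X, 103538141 to 103538250) held 13, 18 and 12 counts in GM and 4, 5 and 3 in DM samples, with a log2 fold change of -1.64 ± 0.53 (SE, adjusted p = 0.0194, edgeR). bta-mir-221 (X, 103538835 to 103538944) held 17, 11 and 9 against 2, 7 and 0 counts, a log2 fold change of -1.82 ± 0.81 (SE), which missed the threshold (adjusted p = 0.0707). Neither row overlapped between the groups. The call of bta-mir-222 was lost without GM replicate 2 or DM replicate 3 (adjusted p up to 0.0646).

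bta-mir-25, of the mir-17-92 family known for promoting proliferation, fell with the gene that encloses it. It held 18, 16 and 23 counts in GM and 8, 5 and 6 in DM samples (at a log2 fold change of -1.40 ± 0.48, SE, adjusted p = 0.0261, edgeR). The family had 15 rows in the table and 2 detected, and the other detected row, bta-mir-92a-1, held 2, 1 and 2 against 4, 1 and 0 counts. The call of bta-mir-25 was lost without GM replicate 3, DM replicate 2 or DM replicate 3 (adjusted p up to 0.0923).

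The remaining rows that fell held few reads. bta-mir-2903 held 6, 7 and 10 counts in GM and 1, 1 and 1 in DM samples, a ratio of GM to DM counts of 6.80 (exact 95% interval 2.06 to 35.4). It reached 10 counts through GM samples alone, and DESeq2 did not call it (adjusted p = 0.0637). bta-mir-2447 held 24, 37 and 32 against 15, 14 and 11 counts (a log2 fold change of -1.04 ± 0.38, SE), and bta-mir-2385, 1617 bases from the kinesin gene KIF22, held 29, 14 and 19 against 6, 10 and 4 counts (a log2 fold change of -1.44 ± 0.52, SE). Their groups did not overlap. The call of bta-mir-2447 was lost without GM replicate 2, GM replicate 3, DM replicate 2 or DM replicate 3, and that of bta-mir-2385 without GM replicate 1, GM replicate 3, DM replicate 1 or DM replicate 3 (adjusted p up to 0.111 and 0.129).

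ENSBTAG00000047795 (chr17:74987641-74987728, plus strand) lies 126 bases from DGCR8 on its strand. It was at 5.52, 5.07 and 4.59 CPM in GM and 2.78, 2.90 and 2.70 CPM in DM samples, without overlap. Its log2 fold change of -0.86 ± 0.16 (SE, adjusted p = 0.000939, edgeR) stayed under the fold threshold. The log2 fold change of DGCR8 itself was -1.04 ± 0.07.

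The list of mir-15 and mir-16 genes had 6 rows and the mir-29 family 5 rows in the table, and none was detected. In the list of mir-23, mir-24 and mir-27 genes 1 of 4 rows was detected, bta-mir-24-2, with 0, 0 and 3 against 1, 6 and 0 counts. bta-mir-365-2 held 11, 8 and 1 against 0, 4 and 9 counts, and its neighbour ENSBTAG00000047797 held 6, 0 and 4 against 0, 0 and 2 counts.

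Copies of mir-2887 and mir-2904 made up 15 of the detected rows and 24 rows of the table. Their names are shared between rows, so that reads may be split among near-identical copies, and each value is uncertain. The best counted miRNA row of all was such a copy of bta-mir-2887-2 (ENSBTAG00000048191, chr18:59526947-59527003), with 7636 counts, at 13.8, 20.7 and 21.9 CPM in GM and 117, 28.6 and 10.2 CPM in DM samples. Its DM samples spread around the GM samples, and it was not called (a log2 fold change of 1.46 ± 0.65, SE, adjusted p = 0.0701, edgeR).

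Both called copies lie on the minus strand of chromosome 18 and hold most of their GM counts in GM replicate 3. A copy of bta-mir-2887-2 (ENSBTAG00000047918, chr18:50715311-50715367) held 1, 146 and 1416 counts in GM and 2, 5 and 0 in DM samples. A copy of bta-mir-2904-1 (ENSBTAG00000048000, chr18:50716431-50716500) held 0, 19 and 870 counts in GM and 2, 2 and 12 in DM samples. The groups overlapped for both, although edgeR called both lower (adjusted p = 0.0054 and 0.0194). The bta-mir-2887-2 copy was called lower in all 6 fits that leave out 1 sample. Its log2 fold change of -7.63 was -4.69 without GM replicate 3, -8.22 without GM replicate 1, -8.73 without DM replicate 2 and -7.03 without DM replicate 3. The bta-mir-2904-1 copy had a log2 fold change of -5.68, which was -6.26 without GM replicate 1 and -7.00 without DM replicate 3. Without GM replicate 3 it had a log2 fold change of -0.62 (adjusted p = 0.687) and was not called, and its call was also lost without DM replicate 1 or DM replicate 2. Without any of the 15 copies edgeR called 32 of 126 rows, 24 higher and 8 lower. Among rows with 100 or more counts, the chi-square per degree of freedom between GM samples had a median of 25.1 over 12 copies and 1.94 over 35 other rows.

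**Figure D4:**
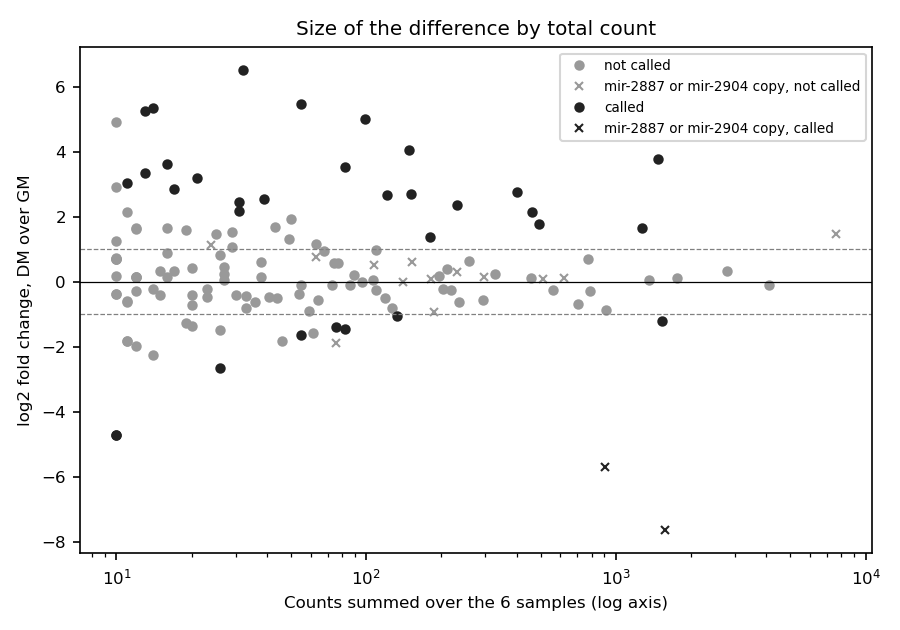
Log2 fold change (DM over GM, edgeR) of each of the 141 detected miRNA rows against its counts summed over the 6 samples on a log axis; black marks were called, crosses are copies of mir-2887 or mir-2904, and dashed lines mark log2 fold changes of -1 and 1. Called rows are found from 10 counts upward, and the largest fold changes of either sign below 100 counts belong to rows at or near 0 in 1 group.

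Several of the best counted rows did not pass the test. ENSBTAG00000047875 (chr19:49332530-49332630) and bta-mir-3064 (chr19:49332072-49332155) lie within DDX5, an RNA helicase gene whose product assists DROSHA. ENSBTAG00000047875 held 727, 669 and 838 counts in GM and 508, 684 and 659 in DM samples, and bta-mir-3064 held 132, 137 and 181 against 76, 138 and 121 counts. Their log2 fold changes were -0.11 ± 0.13 and -0.27 ± 0.24 (SE), beside -0.23 ± 0.06 for DDX5. bta-mir-2469 was at 6.12, 5.41 and 5.93 CPM against 5.89, 6.26 and 6.05 CPM, a log2 fold change of 0.06 ± 0.13 (SE). ENSBTAG00000046351 held 164, 467 and 669 against 628, 505 and 346 counts and varied widely within each group. bta-mir-1842 (66, 94 and 74 against 69, 63 and 92 counts) and bta-mir-2382 (100, 120 and 99 against 59, 59 and 124 counts), neighbours on chromosome 25, overlapped between the groups.

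Each miRNA row was then compared with the protein-coding gene whose interval holds it. Such a gene was found for 50 rows in 48 genes, 36 rows on the strand of the gene and 14 on the opposite strand. Whether a row lies in an intron or an exon was not analysed here, and whether strand was used in counting is not stated, so reads of a miRNA and of its host cannot be fully told apart. edgeR called 7 of the 50 enclosed rows (14%) and 27 of the 91 others (29.7%). Over all tested genes it called 25.3%, and 37.1% of those with 10 to 1000 counts. Of the enclosing genes it called 2 higher and 7 lower for 9 rows, against 15% higher and 10.3% lower over all tested genes. The signs of the log2 fold changes were the same for 31 of 50 pairs, with a Pearson's r of 0.37 and a Spearman's rho of 0.38 across the 50 pairs, which share libraries and in part reads.

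A miRNA row was usually far below its host per length. RPKM (reads scaled to gene length and library size) of the miRNA row was a median of 6.62% of that of the enclosing gene taken over all 6 samples, and was below 10% for 31 of 50 pairs. It exceeded the host for ENSBTAG00000047154 on the opposite strand of ADAMTSL1 (847% in GM and 1292% in DM samples). bta-mir-3431 in GABRE was at 2.38 RPKM against 2.63 for its host in GM samples and at 1.56 against 0.731 in DM samples. Within DDX5, ENSBTAG00000047875 stood at 55.5% and 60.1% of the host's RPKM and bta-mir-3064 at 13.5% and 13.1%.

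**Figure D5:**
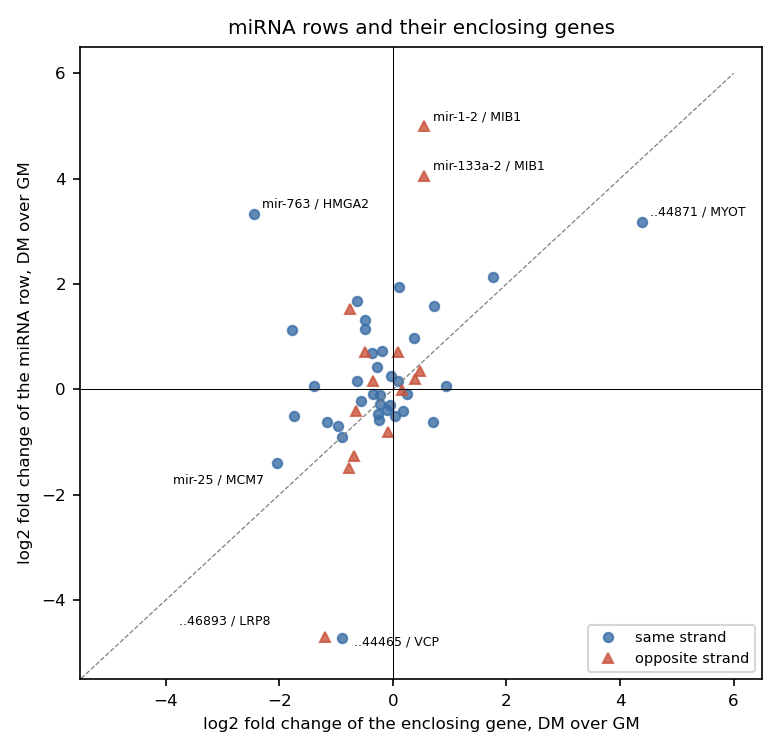
Log2 fold change (DM over GM, edgeR) of each of 50 miRNA rows against that of the protein-coding gene that encloses it, for rows on the same strand (circles) and the opposite strand (triangles); the dashed line marks equal values, ".." stands for ENSBTAG000000, and pairs with a called miRNA are named. The rows in MIB1 and HMGA2 lie far above the line, while those in MYOT and MCM7 share the direction of their host.

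The ratio of miRNA to host counts within a sample, with 0.5 added to each, did not overlap between the groups for 12 of 50 pairs (24%), 10 higher and 2 lower in DM samples. Each of these has the smallest p that 3 against 3 samples allow (two-sided exact permutation test, p = 0.1, adjusted p = 0.417 over 50 pairs), so none passed a correction. The same share over other pairs of genes was not computed, so the 24% has no reference value here. For the 2 lower pairs, in VCP and LRP8, the miRNA row was at 0 in all DM samples and the added 0.5 sets the ratio there.

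Of the 7 enclosed rows called by edgeR, 3 had a host called the same way, 1 had a host called the other way and 3 had a host that was not called. In the first kind, MCM7, a subunit of the replicative helicase, went from 459 ± 17.6 to 112 ± 7.52 CPM (SD, n = 3 each), a log2 fold change of -2.03 ± 0.07 (SE, adjusted p = 5.91e-09, edgeR) beside -1.40 for bta-mir-25. The log2 ratio of bta-mir-25 to MCM7 counts was 0.69 higher in DM samples without overlap, so bta-mir-25 fell less than its host. This is among the higher pairs above, of which none passed a correction. MYOT, the sarcomeric Z-disc protein myotilin, went from 2.73 ± 1.26 to 56.9 ± 11.9 CPM (SD, n = 3 each), a log2 fold change of 4.38 ± 0.28 (SE). Within MYOT on its strand, ENSBTAG00000044871 held 0, 0 and 2 against 7, 8 and 4 counts, a ratio of 10.7 (exact 95% interval 2.58 to 94.8). The ratio was 7.04 without GM replicate 1, 7.02 without GM replicate 2 and at least 4.90 without GM replicate 3. Its call was lost without GM replicate 1, GM replicate 2, DM replicate 1 or DM replicate 2 (adjusted p up to 0.0666). LRP8, a lipoprotein receptor gene, had a log2 fold change of -1.20 ± 0.09 (SE), and ENSBTAG00000046893 on its opposite strand held 7, 2 and 1 counts in GM and 0 in DM samples, at least 2.96-fold lower. Its call was lost without any 1 of the DM replicates 1, 2 and 3 (adjusted p up to 0.0889). Without any 1 of the GM replicates the row fell under the rule on total counts and was not tested. It was also not called by DESeq2, with a replicate block or in the ncRNA table (adjusted p of 0.0655 to 0.129 in these fits). The bound was 1.35-fold without GM replicate 1, 1.95-fold without DM replicate 2 and 1.94-fold without DM replicate 3.

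The row called against its host was bta-mir-763 in HMGA2, a chromatin protein gene of proliferating and fetal cells. HMGA2 held 837, 941 and 780 counts in GM and 76, 101 and 242 in DM samples, with a log2 fold change of -2.45 ± 0.31 (SE, adjusted p = 4.3e-05, edgeR). bta-mir-763 held 1, 0 and 0 against 8, 1 and 3 counts, a ratio of 13.5 (exact 95% interval 2.0 to 578). It reached 10 counts through DM samples alone. The ratio was 6.58 without DM replicate 1, 8.87 without GM replicate 2 and at least 2.96 without GM replicate 1. The log2 ratio of miRNA to host was 5.08 higher in DM samples. The call of bta-mir-763 was lost without GM replicate 1, GM replicate 2 or GM replicate 3 (adjusted p up to 0.125). Without DM replicate 1 bta-mir-763 fell under the rule on total counts and was not tested. It was also not called by DESeq2, with library size alone or in the ncRNA table (adjusted p of 0.0510 to 0.0952 in these fits).

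The hosts that were not called were MIB1, which encloses bta-mir-1-2 and bta-mir-133a-2, and VCP. MIB1, a ubiquitin ligase gene of Notch signaling, held 3652, 3486 and 2983 counts in GM and 4436, 4620 and 4091 in DM samples, with a log2 fold change of 0.56 ± 0.08 (SE). The log2 ratio of miRNA to host counts was 4.04 higher in DM samples for bta-mir-1-2 and 3.96 higher for bta-mir-133a-2. Per length, bta-mir-133a-2 went from 3.18 to 36.8% of the RPKM of MIB1 and bta-mir-1-2 from 1.06 to 25.9%. VCP, an ATPase gene, had a log2 fold change of -0.90 ± 0.05 (SE), and ENSBTAG00000044465 within it held 2, 4 and 4 counts in GM and 0 in DM samples, at least 2.96-fold lower. Its call was lost without any 1 of the DM replicates 1, 2 and 3 (adjusted p up to 0.0568). Without any 1 of the GM replicates the row fell under the rule on total counts and was not tested. It was also not called by DESeq2 or with a replicate block (adjusted p of 0.110 and 0.0549). The bound was 1.95-fold without DM replicate 2 and 1.94-fold without DM replicate 3.

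Some hosts fell while the reads on the enclosed miRNA row did not fall with them. ACTG1, the gene of cytoplasmic gamma-actin, held 384782, 368124 and 348555 counts in GM and 128652, 121257 and 121157 in DM samples (at a log2 fold change of -1.39 ± 0.07, SE). bta-mir-3533 within it had a log2 fold change of 0.06, and the log2 ratio was 1.47 higher in DM samples. ANLN, the cytokinesis gene anillin, had a log2 fold change of -1.78 ± 0.08 (SE) beside 1.13 for a copy of bta-mir-2887-1 within it (adjusted p = 0.17, edgeR). That copy held only 2, 3 and 3 counts in GM and 5, 7 and 4 in DM samples, and values of such copies are uncertain. The log2 ratio was also higher for bta-mir-339a in C7orf50 (by 1.62) and ENSBTAG00000043911 in NR2F2 (by 1.86), whose miRNA rows and hosts were not called. bta-mir-339a held 4, 4 and 7 counts in GM and 6, 8 and 20 in DM samples. ENSBTAG00000043911 held 4, 6 and 1 against 3, 25 and 4 counts, with most of its DM reads in DM replicate 2. Its groups barely separated, with a log2 ratio of -7.23 in GM replicate 2 and -7.21 in DM replicate 1.

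The lists of miRNAs with metabolic hosts (7 rows in the table) and with imprinted hosts elsewhere (2 rows) had 1 detected row each, and neither was called. bta-mir-33b, in the sterol regulator gene SREBF1, held 2, 4 and 8 counts in GM and 8, 2 and 3 in DM samples, beside a log2 fold change of 0.93 ± 0.09 (SE) for SREBF1. bta-mir-483, in the growth factor gene IGF2, held 2, 3 and 4 against 1, 0 and 5 counts, beside 0.17 ± 0.15 (SE) for IGF2.

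Genes that make and carry miRNAs were mostly lower in DM samples. Of 32 names on the list, 29 were in the table and 27 were tested, and edgeR called 6 lower and 0 higher, against 10.3% lower and 15% higher over all tested genes. DESeq2 also called 0 higher. Before the fold threshold, 19 of the 27 had an adjusted p under 0.05 (edgeR), 4 of them higher and 15 lower, against 63.0% of all tested genes. The log2 fold change was negative for 19 and positive for 8, with a median of -0.28 beside 0.03 over all tested genes.

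In the nucleus, DGCR8, the RNA-binding partner of DROSHA, held 5370, 5579 and 4911 counts in GM and 1991, 2309 and 2558 in DM samples, with a log2 fold change of -1.04 ± 0.07 (SE, adjusted p = 4.6e-07, edgeR). SRRT, which links the cap-binding complex to miRNA processing, had a log2 fold change of -1.31 ± 0.06, the splicing factor SRSF3 one of -1.03 ± 0.07 and the RNA-binding protein KHSRP one of -1.07 ± 0.07 (SE). DROSHA itself held 1379, 1232 and 1122 against 771, 884 and 915 counts, a log2 fold change of -0.37 ± 0.08 (SE), under the fold threshold. The groups did not overlap for any of these 5 genes. The helicase gene DDX17 had a log2 fold change of 0.63 ± 0.06 (SE).

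Of the export and cytoplasmic genes, AGO2, the Argonaute protein that can cleave targets, had the largest fall of the list. It held 6116, 5993 and 5537 counts in GM and 1806, 1701 and 1751 in DM samples, with a log2 fold change of -1.57 ± 0.07 (SE, adjusted p = 2.61e-08, edgeR). AGO1, AGO3 and AGO4 had log2 fold changes of 0.13, 0.14 and 0.26. A row named RAN, after the GTPase that powers export, was called lower on few counts (70, 64 and 82 against 27, 30 and 26). It lies on chromosome X (57523485 to 57525442), at a mean of 1.80 CPM in GM and 0.774 CPM in DM samples. Whether this row stands for the main RAN gene or for a copy of it was not tested. XPO5 had a log2 fold change of -0.88 ± 0.06 and DICER1 one of -0.60 ± 0.07 (SE), without overlap and under the fold threshold. ZC3H12A, a nuclease gene that acts on miRNA precursors, had the highest log2 fold change, 0.86 ± 0.12 (SE).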

How the data were processed

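PolyA-selected RNA was sequenced from 3 GM and 3 DM samples. The authors deposited raw read counts per gene without normalization, and RPKM values computed from these counts, the gene length and the library total. The paper names HISAT2 and the buffalo genome, the submitters' processing notes name Bowtie 0.12.2 with mm8 and mm9, and the tables hold cattle Ensembl identifiers without a build. How multiply placed reads were treated is not given in the sources used here. The miRNA rows held the same 6 counts in the ncRNA table in 1153 of 1153 cases. Deposited lists of differential genes hold the authors' log2 fold changes, p-values and q-values and were not used, nor was the mRNA table.

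Genes with at least 10 counts in total were tested in R 4.3.3 with edgeR 4.0.16 (TMM normalization, glmQLFit and glmQLFTest, Benjamini-Hochberg adjustment over all tested genes), without covariates. CPM used TMM-scaled library sizes. Standard errors came from the F statistic. Enclosing genes were found by interval, same strand first, then the shortest. Ratios used a pseudocount of 0.5 and an exact permutation test. Ratios of rows with at most 3 counts in the lower group have exact 95% intervals, and rows at 0 were set to 3 counts over the group. Tables were made with Python 3.11.15, pandas 2.3.3 and scipy 1.17.1, and the scripts were tested on simulated data.

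Genes were named by rule: called rows, the 10 rows of most counts, detected muscle-enriched miRNAs, rows within 10 kb of another on a strand, the 2 members of each list with the largest change, their hosts, and called processing genes. Other hosts, the rows under the count rule, the chromosome 21 rows, ENSBTAG00000047154, processing genes that were not called and the markers were picked with their values in view. The members and lists were chosen with earlier results of these data known. Alternatives were DESeq2 1.42.0, other scalings, filters and thresholds, the ncRNA table, a replicate block, other pairs and pseudocounts, and each sample left out.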

Additional observations from a re-analysis of the deposited data

How the results depend on the processing

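Most miRNA rows held few counts. Of the 34 called rows, 13 were called in every setting with a value, 17 were called in all 6 fits that leave out 1 sample, 19 by DESeq2 and 32 with library size alone. In the fits that leave out 1 sample edgeR called 23 to 29 rows, 17 to 23 higher and 4 to 9 lower; the lowest count of lower calls came without GM replicate 3. These fits and stricter filters test fewer rows. DESeq2 called 19 rows (17 higher, 2 lower). With filterByExpr, 65 rows were tested and 19 called (13 higher, 6 lower). A test against a fold change of 2 called 13 (12 higher, 1 lower). In the ncRNA table with its own library sizes 3 rows were called lower. The share of higher calls was 24 of 34, against 22 of 25 in that table, 17 of 19 by DESeq2 and 12 of 13 against a fold change of 2. The cause of these differences was not tested.

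Same-numbered samples of the 2 groups did not deviate together (correlations of -0.0076, -0.022 and -0.01). Differently numbered samples had correlations of -0.012 to 0.024. Correlations this small do not show a pairing by number, and they cannot exclude that samples shared an origin. With a replicate block edgeR called 28 rows, 22 higher and 6 lower, of which 27 were among the 34, and the 6 calls among processing genes stayed at 6.

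The ratio to the host did not overlap for 7 of 36 same-strand pairs, 5 of 14 opposite-strand pairs (this split was chosen after seeing the data), 7 of 24 pairs with 30 or more counts, and 13 to 19 of 50 pairs with 1 sample left out, where fewer samples make overlap rarer. Without DM replicate 1 it was 19. No share over other pairs of genes stands beside these counts. Processing genes gave 4 to 6 lower calls and 0 higher with 1 sample left out, 4 without DM replicate 1.

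The sign turned for rows that were not called. With library size alone, which moves the median log2 fold change of all genes from 0.03 to -0.07, bta-mir-2469 was at -0.0375 and bta-mir-33b at -0.036. In the ncRNA table with its own library sizes ENSBTAG00000047875 was at 0.14 and bta-mir-2382 at 0.026. With 1 sample left out, log2 fold changes ranged from -0.053 to 0.87 for ENSBTAG00000046351, -0.20 to 0.032 for ENSBTAG00000047875, -0.021 to 0.19 for bta-let-7i, -0.033 to 0.24 for bta-mir-1842, -0.75 to 0.73 for bta-mir-33b, -1.48 to 0.12 for bta-mir-365-2 and -2.15 to 0.18 for bta-mir-483.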
